A study of Mus musculus with 11 samples.

Results

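Axon guidance genes encode the ligands and receptors by which growing nerve fibres, vessels and epithelia read position, and they are described here in APC-mutant and wildtype cells sorted from the mouse pituitary. The members were picked by gene symbol, as the genes named semaphorin 3 to 7, plexin, neuropilin, SLIT, ROBO, EPH receptor, ephrin, netrin 1 to 5 and UNC5. Earlier results of these data were known when this was done. They number 68 of the 56941 genes in the deposited table, namely 20 semaphorins, 9 plexins, 2 neuropilins, 3 SLITs, 4 ROBOs, 9 EPHA and 5 EPHB receptors, 5 ephrin-As, 3 ephrin-Bs, 4 netrins and 4 UNC5 receptors. The study compared 5 libraries of genotype APC-mutant (replicates 1, 2, 4, 5 and 6, whose titles begin with JS and also carry the word Lef1) with 6 libraries of genotype wildtype, titled as controls. Of the wildtype libraries, replicates 1 to 4 carry the prefix ROSAJC and replicates 5 and 6 the prefix ROSAE, and the design text calls the wildtype cells pituitary stem cells. The allele and what drives it, any treatment, the age and strain, the sorting gate, the meaning of Lef1 in the titles, and whether libraries came from separate animals are not given in the sources used here. The p-values below therefore cover only the scatter among these libraries, part of which may be technical. APC is the scaffold of the complex that marks β-catenin for degradation, and β-catenin acts on genes through TCF and LEF factors.

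Semaphorins are secreted or membrane-bound ligands that act through plexins, and most secreted class 3 semaphorins also need a neuropilin as co-receptor. SLITs are secreted ligands of the ROBO receptors. Ephrin-As, held by a lipid anchor, and ephrin-Bs, which span the membrane, bind EPH receptor tyrosine kinases on neighbouring cells, and netrins bind DCC and UNC5 receptors. Several of these genes are best known outside nerves: Plexin-D1, ROBO4, EPHB4, ephrin-B2 and UNC5B are textbook receptors or ligands of blood vessels, and ephrin-B2 has been described in stem cell niches of the rat pituitary.

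The libraries held 18082332 to 27280761 counts in the APC-mutant group and 15740857 to 25414443 in the wildtype group, so that a gene without a count could have had up to 0.11 to 0.191 CPM, the unit of all levels below, which scales counts to a common library total. Apc itself stood at 37.8 to 45.6 CPM in APC-mutant and 39.3 to 47.4 CPM in wildtype libraries (log2 fold change -0.03 ± 0.10, SE, adjusted p = 0.819). Counts cover the gene as a whole, while the sources do not say which part was altered, and this level therefore does not check the label. Lef1, which encodes a DNA-binding partner of β-catenin and whose name stands in the APC-mutant titles, stood at 71.8 to 133.5 CPM in APC-mutant and 6.42 to 17.9 CPM in wildtype libraries, a rise of 3.23 ± 0.23 log2 units (adjusted p = 4.1e-08). Since the title prefixes JS and ROSA split the libraries exactly as the genotypes do, any batch that goes with the prefix cannot be told apart from genotype. Markers of several cell types differed between the groups. The 12 endothelial markers, Pecam1, Cdh5 and Kdr among them, took 0.502 to 0.752% of counts in APC-mutant and 0.0117 to 0.0203% in wildtype libraries. All 12 rose (median log2 fold change 6.64), and none was without a count in either group. Of the 12 mesenchymal and pericyte markers 11 rose (0.0808 to 0.345% of counts in APC-mutant and 0.0138 to 0.029% in wildtype libraries), as did all 12 macrophage markers (0.0202 to 0.171% in APC-mutant and 0.0023 to 0.00697% in wildtype libraries). Of 8 tested erythroid markers 7 rose (0.208 to 0.399% in APC-mutant and 0.000314 to 0.00367% in wildtype libraries), and Slc4a1 had no wildtype count. All 16 endocrine markers fell (0.0167 to 0.148% of counts in APC-mutant against 5.94 to 9.47% in wildtype libraries). Of 11 neuronal markers 8 fell and 2 rose (0.0197 to 0.0337% in APC-mutant and 0.0679 to 0.0777% in wildtype libraries). Of 16 pituitary stem cell markers 7 fell and 3 rose (0.163 to 0.233% in APC-mutant and 0.229 to 0.326% in wildtype libraries), and Sox2 stood at 38.05 ± 5.7 CPM in APC-mutant and 35.4 ± 10.1 CPM in wildtype libraries (SD, n = 5 and 6). The share of stem cell markers that differed, 62.5%, was near the 59.2% of all tested genes, of which 30.7% rose and 28.5% fell. Fewer cells of a type and less RNA per cell cannot be told apart in such bulk samples, and the part of any of these cell types in the results below was not tested.

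Most of the guidance genes differed between the genotypes, and more of them rose than fell. After the filter on low counts 65 of the 68 entered edgeR's quasi-likelihood test, and 53 of these, or 81.5%, were called at an adjusted p under 0.05, where 59.2% of all 20622 tested genes were called. Of the members 35 rose in APC-mutant cells (53.8%, against 30.7% of all tested genes) and 18 fell (27.7%, against 28.5%), while 12 did not pass the test. The libraries of the genotypes did not overlap for 40 members, with the APC-mutant libraries above the wildtype ones for 28 and below them for 12. Over all tested genes 43.0% did not overlap, 23.0% above and 20.0% below. The median log2 fold change was 0.47 over the tested members and 0.02 over all tested genes, and the median size of the change was 1.37 against 0.67 log2 units. Where the mean over all libraries reached 10 CPM, the called share was 84.1% of 44 members and 61.7% of 11711 genes, and no test of the difference between members and other genes was made. With upper-quartile scaling, which lowered the median of all genes by 0.19 log2 units, 31 members rose and 22 fell, and the higher share of all calls was 40.8% in place of 51.9%.

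**Figure D1:**
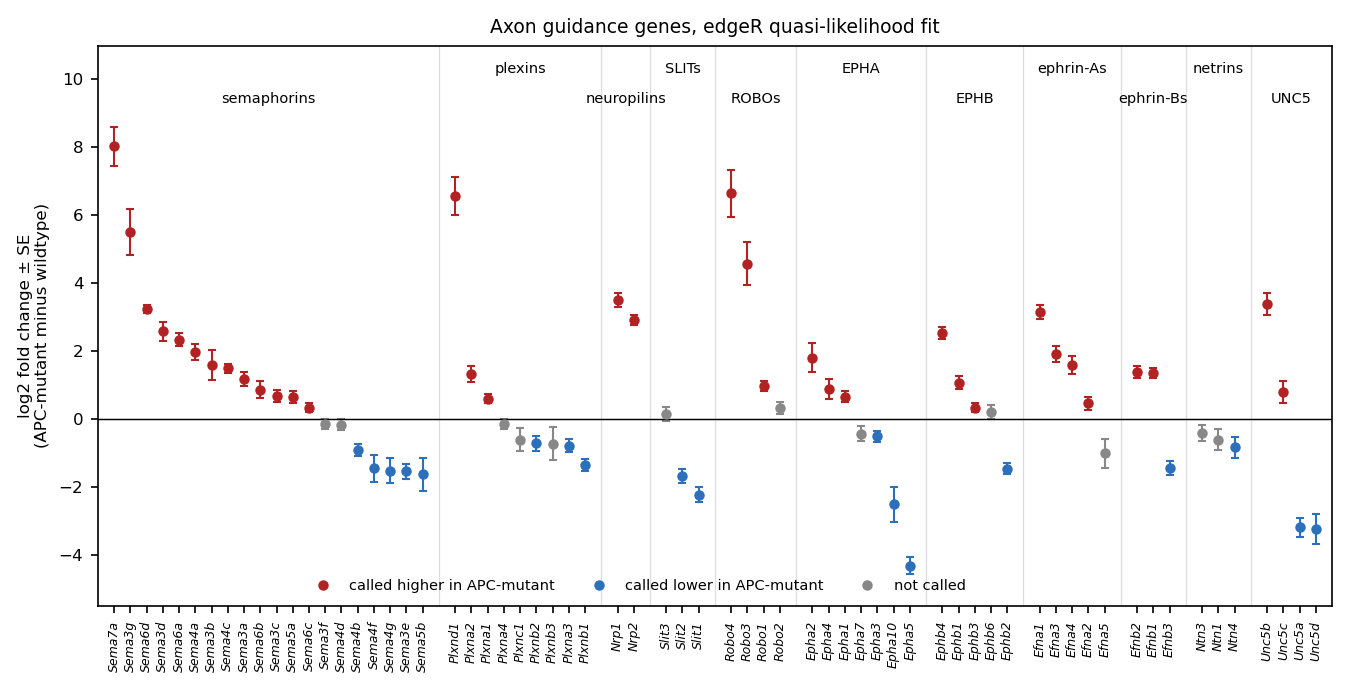
Log2 fold change (APC-mutant minus wildtype) of the 65 tested members by family, each point a gene with its standard error as a bar, in red where called higher, blue where called lower and grey where not called. Semaphorins, neuropilins, ROBOs and ephrin-As lie mostly above 0, whereas Epha5, Unc5d and Unc5a have the lowest values.

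The untested members were Epha6, Epha8 and Ntn5. Epha6, an EPH receptor best known in the nervous system, had no count in any APC-mutant library and 34 counts over the wildtype libraries. Of these, 17 were in a single library, and wildtype replicates 2 and 4 had none, so the groups overlapped. With up to 3 counts allowed over the APC-mutant group and the wildtype counts taken as exact, Epha6 was at least 9.86-fold lower there. The exact counting interval of the ratio reached down to 7.59-fold. Neither figure covers the scatter among the wildtype libraries. The filter asked for 0.512 CPM in 5 libraries, and 7 tested members met it in full only in the genotype where their mean level was higher. Sema7a and Sema3g reached it in no wildtype library, Robo3 in 1 and Robo4 in 3, while Epha10 reached it in 1 APC-mutant library and Unc5d and Plxnb3 in 3. A difference was thus partly built into the testing of these genes, and their p-values are given as a description. All of them but Plxnb3 were called, and they remain in the counts of called members given here. Of 34 tested ligands 19 rose (55.9%) and 9 fell (26.5%), and of 31 tested receptors 16 rose (51.6%) and 9 fell (29.0%), against 30.7% higher and 28.5% lower over all tested genes.

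β-catenin acts through TCF and LEF factors, which bind a short core motif, so the promoters of the members were searched for it. RefSeq promoters (GRCm38.p6, 250 bases before to 50 after each start) were matched by symbol for 59 of the 68 members, and the 7-letter cores CTTTGAT and CTTTGAA were searched on both strands. They occurred in 3 members, or 5.08%, and in 9.88% of the 27025 genes with a promoter in the same table. The members were the receptor Epha2, the co-receptor Nrp2 and the ligand Sema3e, of which Epha2 and Nrp2 rose and Sema3e fell. Their promoters are shown in the order 5′ to 3′ of the gene, all on the plus strand, with the core in capitals, which begins 209 bases before the start for Epha2 (chr4:141300971-141301270), 146 before it for Nrp2 (chr1:62703067-62703366) and 119 before it for Sema3e (chr5:14025026-14025325, where the core reads on the opposite strand).
Epha2: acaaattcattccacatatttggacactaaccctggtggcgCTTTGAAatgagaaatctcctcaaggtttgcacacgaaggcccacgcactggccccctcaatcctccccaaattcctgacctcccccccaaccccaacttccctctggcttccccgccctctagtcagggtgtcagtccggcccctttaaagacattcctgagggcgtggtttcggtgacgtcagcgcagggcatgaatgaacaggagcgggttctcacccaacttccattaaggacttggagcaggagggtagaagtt
Nrp2: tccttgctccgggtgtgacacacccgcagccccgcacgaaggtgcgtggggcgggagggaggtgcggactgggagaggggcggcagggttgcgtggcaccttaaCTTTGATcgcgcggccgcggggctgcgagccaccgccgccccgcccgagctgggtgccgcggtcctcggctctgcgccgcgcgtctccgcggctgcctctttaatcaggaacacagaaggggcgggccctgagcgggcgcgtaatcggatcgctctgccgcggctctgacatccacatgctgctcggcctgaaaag
Sema3e: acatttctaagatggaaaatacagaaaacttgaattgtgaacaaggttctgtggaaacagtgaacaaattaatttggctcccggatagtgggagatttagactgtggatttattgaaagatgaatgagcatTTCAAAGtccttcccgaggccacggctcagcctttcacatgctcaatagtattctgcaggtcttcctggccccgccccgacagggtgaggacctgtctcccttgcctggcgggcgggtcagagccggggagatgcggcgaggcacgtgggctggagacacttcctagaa
The core was thus found in 2 of 32 members with a promoter that rose, 1 of 15 that fell and 0 of 9 that did not pass the test. A match describes letters in these windows and nothing beyond them.

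Semaphorins, the largest family, also had the most members that rose. Of the 20 genes 13 rose (65%, against 30.7% of all tested genes). Another 5 fell (25%, against 28.5%) and 2 did not pass the test. The share that rose was higher in the neuropilins, ephrin-As, ROBOs and ephrin-Bs, and lower in the other families. The summed level of the family was 68.4 ± 3.7 CPM per kilobase of exon in APC-mutant and 36.4 ± 3.68 CPM per kilobase of exon in wildtype libraries (SD, n = 5 and 6). Sema6a, a transmembrane class 6 semaphorin that signals through plexin-A receptors, was the most abundant per kilobase in the APC-mutant cells (ENSMUSG00000019647.17, chromosome 18, 47368665 to 47501937, GRCm39). It stood at 156, 154, 149.9, 127 and 146 CPM in APC-mutant replicates 1, 2, 4, 5 and 6, and in wildtype libraries at 17.4 CPM (lowest), 29.2 (median) and 41.1 (highest). The lowest APC-mutant library thus lay above every wildtype library, a log2 fold change of 2.34 ± 0.19 (SE, adjusted p = 1.07e-07). Its relative Sema6d, a ligand of plexin-A1, had a higher fold change and a narrow spread in either group (chromosome 2, 123931889 to 124509690). Its level was 111, 98.4, 118, 102 and 84.3 CPM in the 5 APC-mutant libraries, against 9.81 to 12.4 CPM, median 10.6, in the wildtype libraries. This separation of 3.25 ± 0.11 log2 units (adjusted p = 7.8e-11) had the smallest adjusted p of all tested members. The other class 6 genes, Sema6b and Sema6c, rose by 0.87 and 0.34 log2 units, and both calls were lost under some of the 21 alternative settings, that of Sema6c under 17. Without any single library other than wildtype replicate 3 the adjusted p of Sema6c was 0.0501 to 0.0972.

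The secreted class 3 semaphorins, which act on neuropilins and plexins, rose in 5 of 7 cases (71.4%, against 30.7% of all tested genes). Sema3f, a ligand of neuropilin-2, led the family in wildtype cells per kilobase and did not pass the test. It was measured at 52.2, 47.9, 41.8, 61.5 and 46.1 CPM in the APC-mutant libraries and at 43.9 to 70.9 CPM, median 51.6, in the wildtype libraries. The ranges overlapped almost throughout (log2 fold change -0.14 ± 0.15, adjusted p = 0.457). Its neighbour Sema3b, 72.3 kb away, rose by 1.59 ± 0.44 log2 units from a low level. Sema3a, the best known repellent of the class and a ligand of neuropilin-1, reached 33.5 ± 9.2 CPM in APC-mutant and 14.8 ± 3.42 CPM in wildtype cells, a rise of 1.18 ± 0.21. Sema3d and Sema3c rose as well, by 2.59 and 0.68 log2 units.

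Sema3e ran against its class. It encodes the ligand of plexin-D1, to which it binds without a neuropilin (chromosome 5, 14075290 to 14306703). Its level was 5.75, 3.06, 3.76, 4.31 and 5.33 CPM in the 5 APC-mutant libraries, and 9.07 to 15.9 CPM with a median of 12.8 in the wildtype libraries. Every APC-mutant library lay below every wildtype one, and the fall was -1.54 ± 0.22 log2 units (adjusted p = 2.97e-05). On mouse chromosome 5 Sema3d, Sema3a and Sema3e follow each other at distances of 536 and 423 kb, so that neighbouring genes moved in opposite directions. Sema3g, a class 3 gene best known in vessels, had 1.76, 2.95, 2.21, 2.82 and 3.25 CPM in the APC-mutant libraries. In wildtype cells it had 6 counts in all, in replicates 1 and 6. The ratio of the normalised totals was 51.6, with a 95% counting interval of 23.4 to 142, and the fitted change was 5.51 ± 0.68 log2 units (adjusted p = 7.79e-06). Without wildtype replicate 6 the fitted value was 7.30.

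Sema7a, the lipid-anchored semaphorin, which signals through integrins and plexin-C1, had the highest fitted fold change of the tested members in edgeR, a rank that rests on 2 wildtype counts (chromosome 9, 57847395 to 57870148). Under limma voom the value was 7.48 for Sema7a and 8.56 for Robo4. Sema7a was measured at 6.39, 6.52, 4.59, 5.15 and 8.22 CPM in the APC-mutant libraries. In wildtype cells 2 counts were found, both in replicate 3 (0.132 CPM), and the other 5 libraries had none. The ratio of totals was 361, with a 95% counting interval of 99.5 to 2988, and the fitted change of 8.04 ± 0.58 log2 units (adjusted p = 3.86e-08) became 9.98 without that replicate. Its receptor gene Plxnc1 did not pass the test.

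The membrane-bound class 4 semaphorins were divided, with 2 that rose, 3 that fell and 1 that did not pass the test. The share that rose was 33.3%, against 30.7% of all tested genes, and the share that fell 50%, against 28.5%. Sema4c, a ligand of plexin-B2, and Sema4a rose by 1.50 ± 0.14 and 1.98 ± 0.24 log2 units, both without overlap. Sema4b, Sema4f and Sema4g fell by 0.90, 1.45 and 1.51 log2 units. The fall of Sema4f had an adjusted p of 0.169 against the ROSAE libraries alone. Sema4d, the ligand of plexin-B1, stood at 20.5, 23.2, 17.5, 14.3 and 18.8 CPM in the APC-mutant libraries and at 15.5, 21.03 and 26.04 CPM (lowest, median, highest) in the wildtype ones. These ranges overlapped (log2 fold change -0.15 ± 0.17, adjusted p = 0.445). Sema5a rose by 0.65 ± 0.19 log2 units with overlapping libraries, and the call was lost against the ROSAE libraries alone (adjusted p = 0.112). Sema5b, the lowest of the called semaphorins in fold change, had 5.06, 3.51, 1.88, 1.83 and 4.11 CPM in APC-mutant libraries and 13.8, 4.89, 3.96, 5.88, 24.98 and 6.65 CPM in wildtype replicates 1 to 6. Wildtype replicates 1 and 5 were far above the other 4, which overlapped the APC-mutant libraries, and the fall was -1.61 ± 0.48 (adjusted p = 0.0105), with -2.25 against the ROSAE and -1.16 against the ROSAJC libraries alone, -1.13 without wildtype replicate 5 and -1.09 without APC-mutant replicate 5 and wildtype replicates 2 and 5.

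Among the plexins, the receptors of the semaphorins, 3 rose, 3 fell and 3 did not pass the test. These shares of 33.3% in either direction were near those of all tested genes, of which 30.7% rose and 28.5% fell. Plxnd1, the receptor of the ligand encoded by Sema3e, was nearly absent from wildtype cells and led the family in APC-mutant cells (ENSMUSG00000030123.16, chromosome 6, 115931772 to 115971966). Its level was 151, 171, 137, 186 and 168 CPM in the APC-mutant libraries, against 0.902, 0.568, 2.84, 5.64, 0.674 and 0.246 CPM in wildtype replicates 1 to 6. The lowest APC-mutant library was far above the highest wildtype one, which was replicate 4, with a log2 fold change of 6.56 ± 0.56 (adjusted p = 2.21e-07). Without wildtype replicate 4 it was 7.37, and under limma voom 7.34. Receptor and ligand thus differed in direction, Plxnd1 higher and Sema3e lower in APC-mutant cells. Plxnd1 made up 44.4% of the family's summed level per kilobase in APC-mutant cells and 0.553% in wildtype cells.

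Plxnb2, a receptor of class 4 semaphorins that is widespread in epithelia, led the family in wildtype cells, with 27.3% of the summed level in APC-mutant and 57.3% in wildtype cells. It stood at 115, 109, 109.5, 92.4 and 102 CPM in APC-mutant libraries, and at 99.2, 159 and 273 CPM (lowest, median, highest) in wildtype ones. The wildtype libraries were widely spread and overlapped the APC-mutant range, and the fall of -0.70 ± 0.23 log2 units (adjusted p = 0.0151) had an adjusted p of 0.0541 against the ROSAE libraries alone. Plxnb1, the receptor of the ligand encoded by Sema4d, fell without overlap. It had 24.1, 15.02, 15.2, 18.9 and 24.8 CPM in APC-mutant libraries and 33.9 to 59.02 CPM, median 51.5, in wildtype libraries, a change of -1.34 ± 0.18 (adjusted p = 1.72e-05). Plxna3 was called lower, with a change of -0.77 ± 0.20. Plxnb3, at 0.845 ± 0.572 CPM in APC-mutant and 1.39 ± 0.626 CPM in wildtype cells, did not pass the test (adjusted p = 0.219).

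Plxna1 and Plxna2, which pair with neuropilins and bind class 6 semaphorins, rose by 0.61 ± 0.12 and 1.33 ± 0.24 log2 units. Of their exonic bases 10.7% and 15.4% overlap another gene, whose fragments were counted for both. Plxna4 had 26.8, 20.98, 16.6, 27.1 and 28.5 CPM in APC-mutant and 22.01 to 32.96 CPM, median 25.1, in wildtype libraries. These overlapped (adjusted p = 0.484). Plxnc1, the plexin that the ligand encoded by Sema7a can bind, had 7.4, 9.27, 6.19, 4.58 and 5.99 CPM in APC-mutant libraries and 14.4, 5.95, 4.88, 5.52, 17.98 and 11.9 CPM in wildtype replicates 1 to 6. As for Sema5b, wildtype replicates 1 and 5 were the highest, and the difference of -0.60 ± 0.35 log2 units did not pass the test (adjusted p = 0.155). Against the ROSAE libraries alone it was -1.15 and passed (adjusted p = 0.0101).

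Both neuropilins, the co-receptors of class 3 semaphorins and of VEGF, rose strongly. Nrp1 was the more abundant of them per kilobase in both genotypes (ENSMUSG00000025810.10, chromosome 8, 129085085 to 129229844). Its level was 392, 438, 357, 437 and 427 CPM in the APC-mutant libraries, against 22.8, 33.4 and 51.01 CPM (lowest, median, highest) in wildtype libraries. The groups were widely apart, and the change was 3.51 ± 0.21 log2 units (adjusted p = 5.42e-09). Nrp2, with the promoter printed above, also separated the groups (chromosome 1, 62742444 to 62857854). It stood at 169.98, 162, 153, 157 and 185 CPM in APC-mutant libraries and 16.3 to 27.96 CPM, median 22.7, in wildtype ones, a change of 2.92 ± 0.14 (adjusted p = 7.85e-10). Together they summed to 55.9 ± 4.03 CPM per kilobase in APC-mutant and 5.53 ± 1.22 in wildtype cells.

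**Figure D2:**
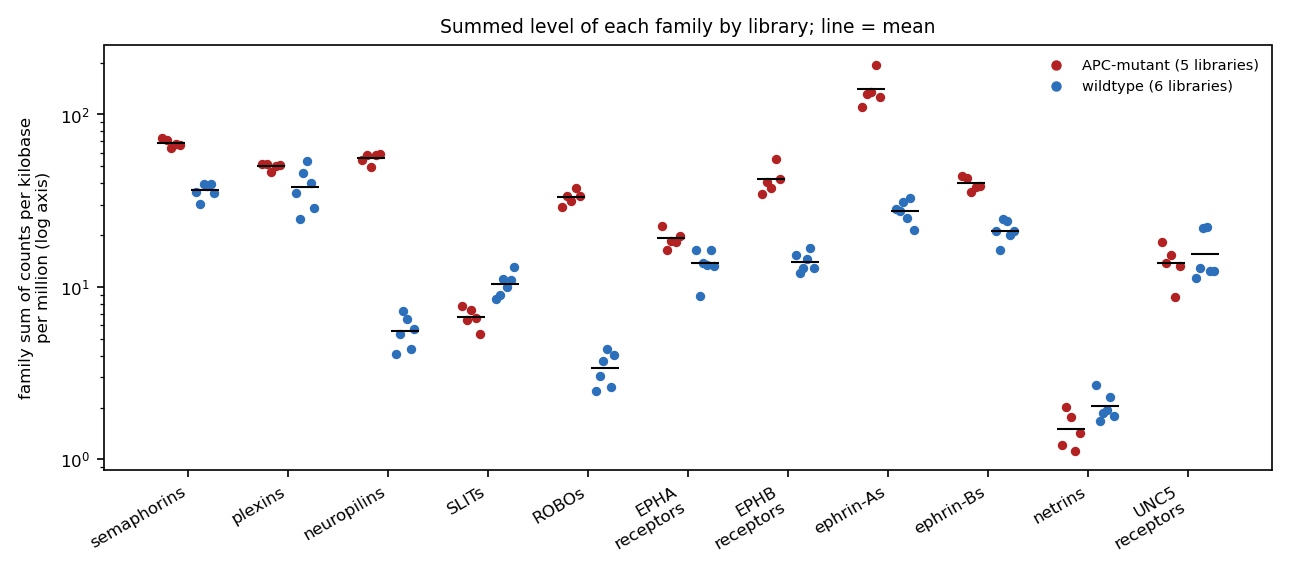
Summed level of each of the 11 families in CPM per kilobase of exon, each point a library (5 APC-mutant and 6 wildtype) on a log axis. Neuropilins, ROBOs and ephrin-As are farthest apart between the genotypes, and the plexins, UNC5 receptors and netrins overlap.

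Of the SLITs, secreted ligands, 2 of 3 fell, and of the ROBOs, their receptors, 3 of 4 rose. Over all tested genes 28.5% fell and 30.7% rose, and both families are small. Slit1, best known as a midline repellent, had 7.3, 2.7, 6.41, 5.53 and 5.89 CPM in APC-mutant libraries and 21.5 to 30.9 CPM, median 26.2, in wildtype libraries (chromosome 19, 41588696 to 41732104). All APC-mutant libraries were below all wildtype ones, with a change of -2.22 ± 0.22 log2 units (adjusted p = 1e-06). Slit2 was measured at 14.4, 8.71, 11.3, 6.79 and 8.22 CPM in APC-mutant libraries and at 23.4, 30.8 and 37.6 CPM (lowest, median, highest) in wildtype ones. It too did not overlap, and its change was -1.66 ± 0.20 (adjusted p = 6.39e-06). Slit3, the most abundant of the family per kilobase in both genotypes, had 35.96, 34.4, 35.6, 32.7 and 24.4 CPM in APC-mutant libraries and 15.9 to 42.5 CPM, median 28.6, in wildtype ones. Its ranges overlapped (log2 fold change 0.16 ± 0.20, adjusted p = 0.528), and the sign of this uncalled value turned with upper-quartile scaling (-0.032) and against the ROSAE libraries alone (-0.056).

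Robo4, a ROBO receptor of endothelial cells, led the ROBOs per kilobase in APC-mutant cells (ENSMUSG00000032125.22, chromosome 9, 37313193 to 37326411). It stood at 117, 153, 135, 164 and 152 CPM in the APC-mutant libraries and at 0.351, 1.21, 3.63, 3.84, 0 and 0 CPM in wildtype replicates 1 to 6. All APC-mutant libraries were above 100 CPM, and both ROSAE libraries had no count, which allows up to 0.153 to 0.163 CPM before scaling. The fitted change was 6.66 ± 0.69 log2 units (adjusted p = 1.51e-06), with 6.01 against the ROSAJC libraries alone and 8.56 under limma voom. As given above, Robo4 and Robo3 met the filter in full only in the APC-mutant libraries. Robo3 lies tail to tail with Robo4, 0.553 kb away, and rose by 4.57 ± 0.63 log2 units to 5.45 ± 2.39 CPM in APC-mutant cells, against 0.228 ± 0.205 CPM in wildtype cells (SD, n = 5 and 6). Read pairs were counted without regard to strand, so reads that run past the end of one gene into the other cannot be told apart.

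Robo1, the leading ROBO of the wildtype cells and a classical SLIT receptor, rose as well. It had 69.7, 47.6, 57.2, 51.8 and 44.95 CPM in APC-mutant libraries, against 23.1 to 32.9 CPM, median 25.6, in wildtype libraries. There was no overlap (log2 fold change 0.98 ± 0.14, adjusted p = 3.59e-05). Robo2, next to it at 846 kb, had 35.5, 30.5, 29.4, 32.3 and 23.6 CPM in APC-mutant libraries and 17.5 to 34.6 CPM, median 22.6, in wildtype libraries. The difference of 0.35 ± 0.18 did not pass the test (adjusted p = 0.106), and without wildtype replicate 6, the highest, it was 0.48 with an adjusted p of 0.0171. Robo4 made up 82.04% of the summed ROBO level in APC-mutant and 7.53% in wildtype cells, while Robo1 made up 10.1% in APC-mutant and 50.05% in wildtype cells.

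Plxnd1 and Robo4, both vascular receptors, were set beside the endothelial markers library by library. Replicate 5, with 0.752% of counts in endothelial markers, had the highest Robo4 and Plxnd1 levels of the APC-mutant libraries. Replicate 1, with 0.502%, had the lowest Robo4 level, and the lowest Plxnd1 level was in replicate 4. Unc5b ran the other way, highest in replicate 1 and lowest in replicate 5. In wildtype cells Robo4 and Plxnd1 were highest in replicates 3 and 4, where endothelial markers took 0.0191% and 0.0196% of counts. In replicate 2, where the markers took 0.0203%, Plxnd1 was the second lowest of the 6 and Robo4 the third highest. Whether endothelial cells account for any of these levels was not tested.

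**Figure D3:**
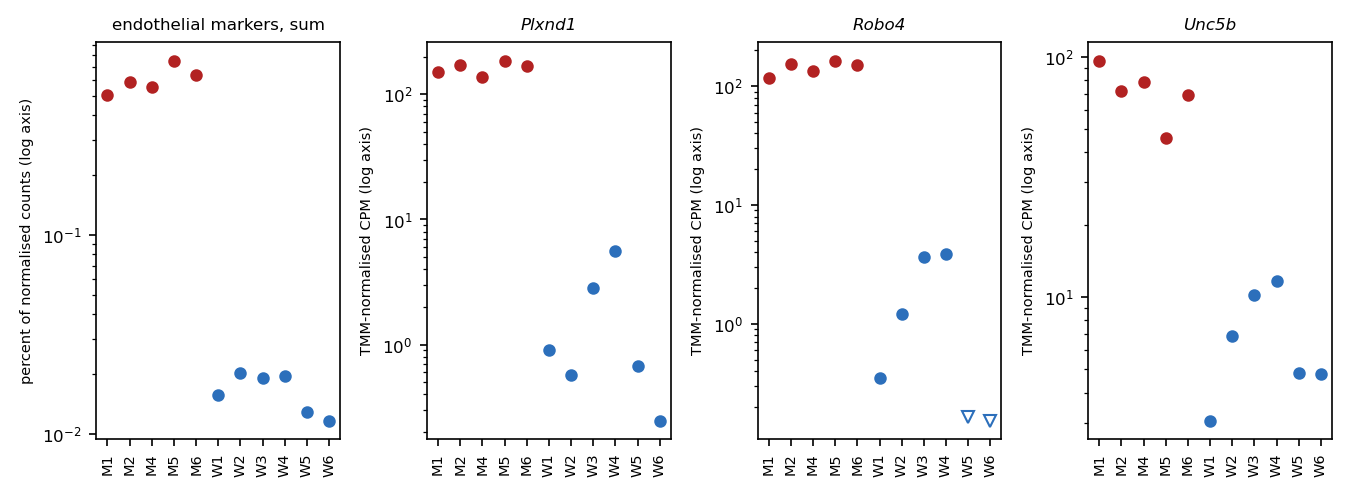
Percentage of normalised counts in 12 endothelial markers (first panel) and levels of Plxnd1, Robo4 and Unc5b in TMM-normalised CPM (log axes), by library, where M and W with a number stand for APC-mutant and wildtype replicates. Open triangles mark libraries with no count, drawn at the level of 3 counts; in every panel the APC-mutant libraries lie above the wildtype ones, at 0.502 to 0.752% against 0.0117 to 0.0203% for the markers.

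Ephrin-As rose in 4 of 5 cases (80%, against 30.7% of all tested genes), and none was called lower, against 28.5%. Efna1, a lipid-anchored ligand of EPHA2, led the family in both genotypes (ENSMUSG00000027954.10, chromosome 3, 89179040 to 89188449). Its level was 155, 193, 204, 310.3 and 189 CPM in the APC-mutant libraries and 16.3, 20.9 and 36.1 CPM (lowest, median, highest) in the wildtype libraries. All APC-mutant libraries were above 150 CPM and no wildtype library reached 40, a change of 3.16 ± 0.22 log2 units (adjusted p = 2.2e-08). It held 81.6% of the summed ephrin-A level in APC-mutant and 46.5% in wildtype cells. Efna1, Efna3 and Efna4 lie in a row on chromosome 3, 32.8 and 10.4 kb apart, and the other members of the row rose by 1.92 ± 0.23 and 1.60 ± 0.26 log2 units. Of the exonic bases of Efna3 14.1% overlap another gene, and of Efna4 10.5%.

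Efna2 had 17.7, 19.7, 17.97, 10.9 and 12.7 CPM in APC-mutant libraries and 8.64 to 13.6 CPM, median 11.8, in wildtype libraries. The groups overlapped, and the rise of 0.47 ± 0.19 log2 units (adjusted p = 0.0425) was lost under 15 of the 21 alternatives, with adjusted p of 0.0522 to 0.114 when APC-mutant replicate 1, 2 or 4 was left out, or one of wildtype replicates 1, 3, 4, 5 and 6. Efna5 was the exception in direction, without passing the test. It had 17.4, 10.7, 6.52, 4.46 and 9.54 CPM in APC-mutant libraries and 26.01, 8.41, 15.3, 10.6, 41.1 and 15.3 CPM in wildtype replicates 1 to 6, a difference of -1.002 ± 0.42 (adjusted p = 0.0522). Wildtype replicates 1 and 5 were again the highest, and the difference passed the test under 8 of the 21 alternatives, with adjusted p of 0.0185 without APC-mutant replicate 1, 0.0232 without wildtype replicate 2 and 0.0353 without wildtype replicate 4.

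The EPHA receptors, which bind ephrin-As, were divided, with 3 of the 7 tested that rose, 3 that fell and 1 that did not pass the test. Either share was 42.9%, where 30.7% of all tested genes rose and 28.5% fell. Epha2, the main receptor for ephrin-A1 in epithelia, was the most abundant per kilobase in APC-mutant cells (chromosome 4, 141028551 to 141056695, on GRCm39, and its promoter is printed above on GRCm38.p6). It stood at 46.5, 30.9, 40.97, 32.7 and 38.97 CPM in APC-mutant libraries and at 14.03, 0.947, 12.7, 12.7, 14.4 and 10.1 CPM in wildtype replicates 1 to 6. All APC-mutant libraries lay above all wildtype ones, of which replicate 2 was far below the rest, and the change was 1.82 ± 0.43 log2 units (adjusted p = 0.00209). Ligand and receptor, Efna1 and Epha2, both rose. Epha4 and Epha1 rose by 0.89 ± 0.28 and 0.67 ± 0.16. Among the wildtype libraries Epha4 was highest in replicates 1 and 5, and its call was lost against the ROSAE libraries alone, which include replicate 5 (0.76, adjusted p = 0.11).

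Epha5, an EPH receptor best known in the nervous system, had the deepest fall of all tested members (ENSMUSG00000029245.17, chromosome 5, 84202620 to 84565241). Its level was 1.01, 1.68, 1.22, 2.02 and 2.33 CPM in the APC-mutant libraries, against 25.2, 34.8 and 38.7 CPM (lowest, median, highest) in the wildtype libraries. No APC-mutant library reached 3 CPM and every wildtype library was above 25, a change of -4.30 ± 0.24 log2 units (adjusted p = 3.11e-09), or 19.7-fold lower in APC-mutant cells. Epha10, a receptor with an inactive kinase domain, was called lower, at -2.50 ± 0.52 log2 units, from levels that did not exceed 2 CPM in any library. Epha3 was called lower at -0.50 ± 0.17, which was lost against the ROSAE libraries alone (adjusted p = 0.136) and without APC-mutant replicate 2 or 4 (0.0521 and 0.0555). Epha7, first among the EPHA receptors of wildtype cells by mean level per kilobase, though in only 3 of the 6 libraries, had 23.1, 17.1, 19.2, 17.97 and 25.4 CPM in APC-mutant libraries and 40.4, 18.5, 18.4, 21.3, 37.6 and 28.9 CPM in wildtype replicates 1 to 6. Wildtype replicates 1 and 5 stood highest, and the difference of -0.42 ± 0.22 did not pass the test (adjusted p = 0.121). It passed under upper-quartile scaling (-0.62, adjusted p = 0.0296) and against the ROSAE libraries alone (-0.68, adjusted p = 0.0149).

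Of the EPHB receptors 3 of 5 rose (60%, against 30.7% of all tested genes) and 1 fell (20%, against 28.5%). Ephb4, the receptor of ephrin-B2 in veins, led the family in both genotypes (chromosome 5, 137348371 to 137376931). It was measured at 111, 138, 126, 187 and 143 CPM in APC-mutant libraries and at 18.3, 24.6 and 31.4 CPM (lowest, median, highest) in wildtype libraries. The lowest APC-mutant library was above the highest wildtype one, with a change of 2.53 ± 0.18 log2 units (adjusted p = 2.69e-08). Ephb2, known from nerves and intestinal epithelium, moved the opposite way. It had 4.9, 4.79, 4.76, 5.15 and 4.31 CPM in APC-mutant libraries and 10.3 to 16.5 CPM, median 12.5, in wildtype libraries, without overlap (-1.45 ± 0.17 log2 units, adjusted p = 4.8e-06). Ephb1 rose by 1.08 ± 0.20 log2 units. Ephb3 was called higher at 0.35 ± 0.13, a call lost under 12 of the 21 alternatives. Its adjusted p was 0.0508 to 0.0769 when APC-mutant replicate 4, 5 or 6 was left out, or one of wildtype replicates 1, 2, 3 and 5. Ephb6, which lacks kinase activity, had 9.75, 12.4, 6.3, 12.8 and 11.7 CPM in APC-mutant libraries and 7.02 to 10.7 CPM, median 9.33, in wildtype libraries, which overlapped (adjusted p = 0.375).

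Among the ephrin-Bs, the transmembrane ligands of EPHB receptors, 2 rose and 1 fell. The shares were 66.7% and 33.3%, against 30.7% and 28.5% of all tested genes. Efnb1 led the family per kilobase in both genotypes, with 83.2, 83.6, 61.6, 68.2 and 68.04 CPM in APC-mutant libraries and 21.4 to 35.5 CPM, median 26.9, in wildtype libraries. It did not overlap, and rose by 1.37 ± 0.14 log2 units (adjusted p = 1.28e-06). Efnb2, the ligand of EPHB4, had 122, 109.6, 107, 103 and 111 CPM in APC-mutant libraries and 30.3 to 56.3 CPM, median 40.5, in wildtype libraries (chromosome 8, 8667434 to 8711242). The rise of 1.40 ± 0.17 (adjusted p = 8.55e-06) stood beside that of Ephb4. Efnb3, the ephrin-B of the nervous midline, fell without overlap. It had 6.76, 9.12, 6.63, 9.31 and 8.68 CPM in APC-mutant libraries and 14.6 to 28.6 CPM, median 22.3, in wildtype libraries, a change of -1.43 ± 0.19 (adjusted p = 1.84e-05).

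**Figure D4:**
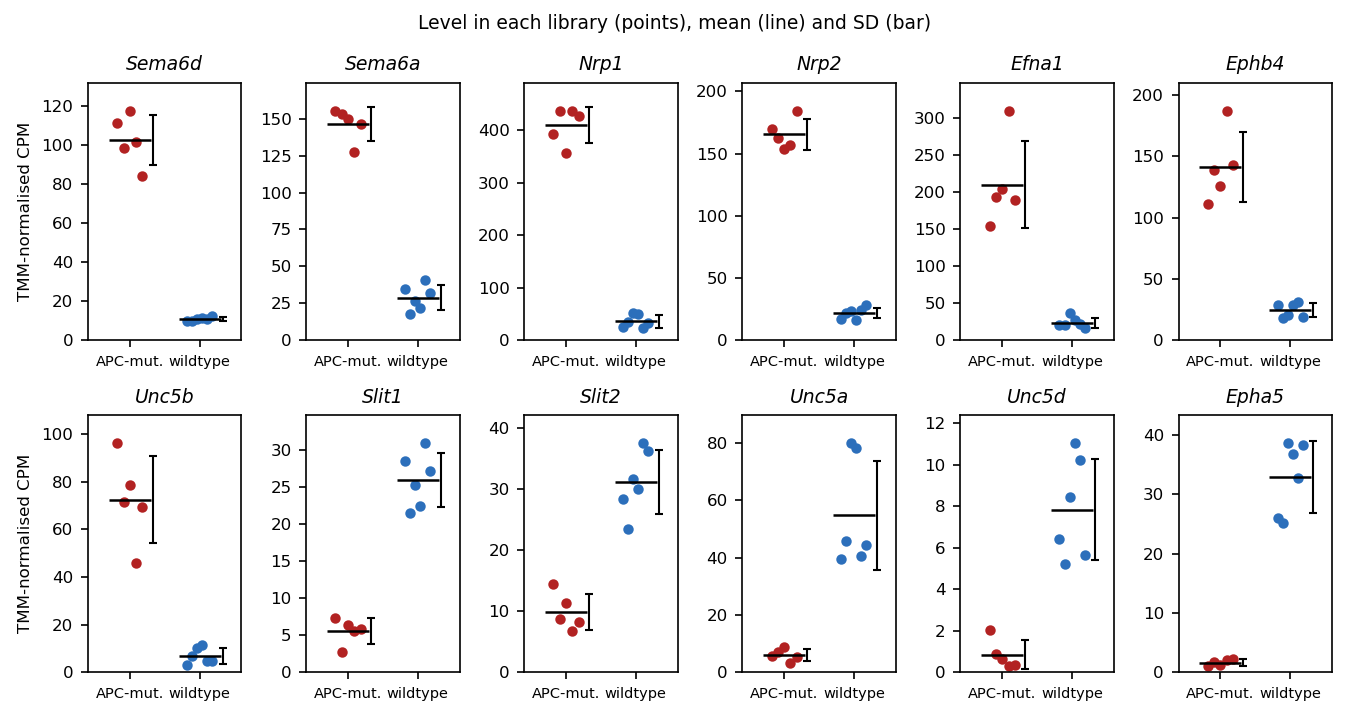
Level in TMM-normalised CPM (linear axes from 0) of 12 members in each of 5 APC-mutant libraries (left) and 6 wildtype libraries (right), each point a library, with the mean as a line and the SD as a bar. Sema6d, Sema6a, Nrp1, Nrp2, Efna1, Ephb4 and Unc5b lie higher in every APC-mutant library than in any wildtype library, and Slit1, Slit2, Unc5a, Unc5d and Epha5 lie lower.

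Netrins were expressed at low levels in both genotypes, and none rose. Of 3 tested, Ntn4 was called lower and the others did not pass the test. The called share was 33.3%, against 59.2% of all tested genes. Ntn3 led the family per kilobase in both genotypes, with 2.4, 5.09, 3.93, 2.82 and 3.09 CPM in APC-mutant libraries and 3.56 to 5.46 CPM, median 4.66, in wildtype libraries (adjusted p = 0.173). Ntn4, a netrin of basement membranes, had 1.17, 2.04, 2.1, 1.03 and 1.57 CPM in APC-mutant libraries and 1.85 to 4.11 CPM, median 2.52, in wildtype libraries. These overlapped, and the call (-0.83 ± 0.32 log2 units, adjusted p = 0.0358) was lost under 9 of the 21 alternatives, with adjusted p of 0.0646 to 0.0864 when APC-mutant replicate 1, 5 or 6 was left out, or one of wildtype replicates 1 and 5. Ntn1, the classical attractant, stood at 1.45 ± 0.609 CPM in APC-mutant and 2.18 ± 0.407 CPM in wildtype cells (SD, n = 5 and 6, adjusted p = 0.116), and passed the test without APC-mutant replicate 2 (-0.84 log2 units, adjusted p = 0.0397) and under upper-quartile scaling (adjusted p = 0.0418).

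The UNC5 receptors, which mediate repulsion by netrins, differed in composition: their summed level overlapped between the genotypes, at 13.8 ± 3.48 CPM per kilobase in APC-mutant and 15.5 ± 5.18 in wildtype cells, while the leading gene differed. Unc5b, the vascular UNC5 receptor, stood at 96.3, 71.6, 78.7, 45.8 and 69.3 CPM in APC-mutant libraries and at 3.06, 5.84 and 11.7 CPM (lowest, median, highest) in wildtype libraries (ENSMUSG00000020099.9, chromosome 10, 60598372 to 60667360). There was no overlap, and the rise was 3.40 ± 0.31 log2 units (adjusted p = 4.38e-07). Unc5a, best known in neurons, had 5.75, 7.08, 8.74, 3.24 and 5.53 CPM in APC-mutant libraries and 39.5 to 80.04 CPM, median 45.03, in wildtype libraries (chromosome 13, 55097224 to 55153831). It fell by 3.18 log2 units with an SE of 0.29 (adjusted p = 3.46e-07). Unc5b made up 83.5% of the summed level in APC-mutant and 6.85% in wildtype cells, and Unc5a 10.5% in APC-mutant and 84.4% in wildtype cells.

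Unc5d had 2.02, 0.866, 0.663, 0.305 and 0.355 CPM in APC-mutant libraries and 5.23 to 11.05 CPM, median 7.43, in wildtype libraries. APC-mutant replicate 1 was the highest of its group and still below every wildtype library, with a change of -3.22 ± 0.45 log2 units (adjusted p = 2.76e-05), or -3.84 without that replicate. Unc5c was called higher at 0.80 ± 0.32 log2 units, with overlapping libraries, and the call was lost under 8 of the 21 alternatives. Its adjusted p was 0.0712 to 0.163 when APC-mutant replicate 1 or 6 was left out, or one of wildtype replicates 2, 3, 4 and 6. Unc5a, Unc5d, Epha5, Efnb3 and Slit1, genes best known in neurons, were picked here because they fell. Other guidance genes of axons, such as Sema3a, Robo3, Epha4 and Ephb1, rose, and Plxna4 and Robo2 did not pass the test. As given above, Robo3 and Unc5d met the filter in full only in the genotype where they were higher. Reads of Robo3 and Robo4 cannot be fully told apart, and the Epha4 call was lost against the ROSAE libraries alone. Of 11 neuronal markers 8 fell and 2 rose, and all 16 endocrine markers fell, where 28.5% of all tested genes fell and 30.7% rose. The part of neuronal or endocrine cells in the falls of these members was not tested.

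**Figure D5:**
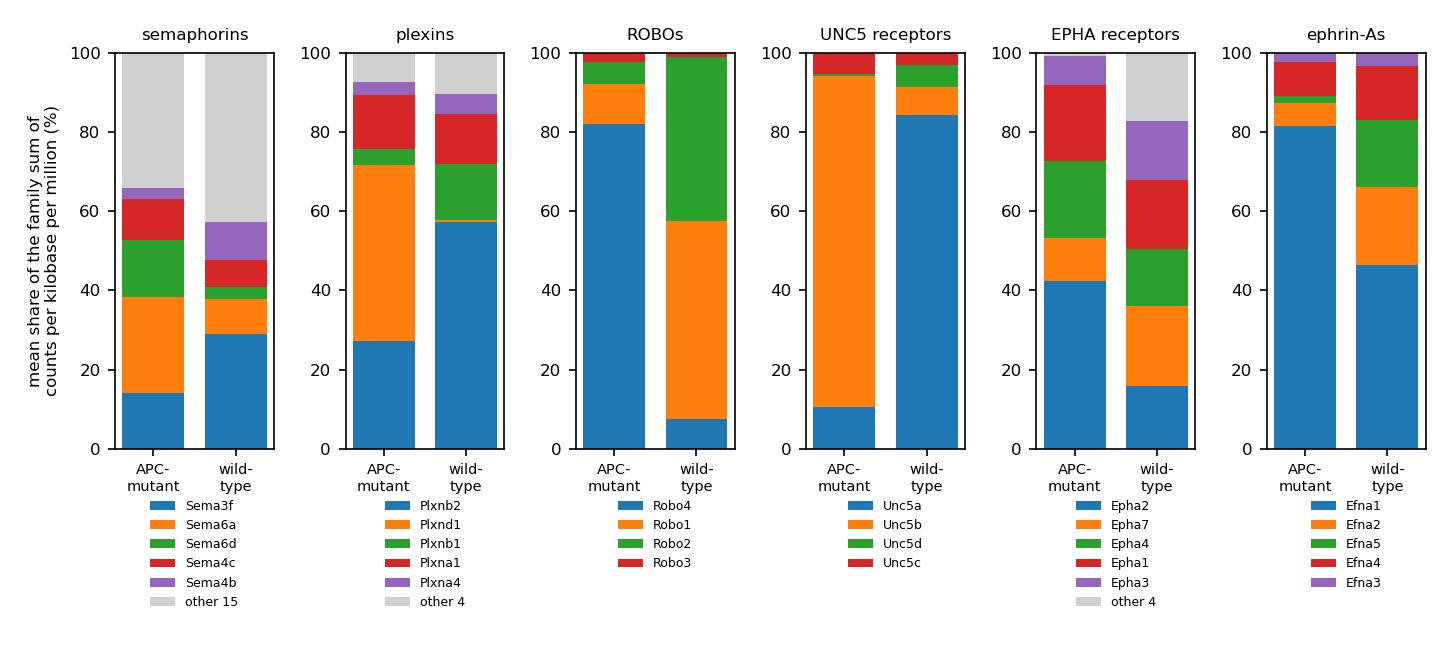
Share of the summed CPM per kilobase held by each of the most abundant members in 6 families, with other members in grey, in APC-mutant (left bar) and wildtype cells (right bar), as means over 5 and 6 libraries. The largest share belongs to Unc5b in APC-mutant and Unc5a in wildtype cells, to Robo4 and Robo1, and to Plxnd1 and Plxnb2 likewise, while Efna1 leads the ephrin-As in both genotypes.

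By mean level per kilobase the most abundant member thus differed between the genotypes in 5 of the 11 families, the semaphorins, plexins, ROBOs, EPHA receptors and UNC5 receptors. Sema6a held 24.4% of the semaphorin sum in APC-mutant and 8.99% in wildtype cells, and Sema3f 14.03% in APC-mutant and 28.95% in wildtype cells. Epha2 held 42.4% of the EPHA sum in APC-mutant and 15.95% in wildtype cells, and Epha7 10.9% in APC-mutant and 20.2% in wildtype cells. For the EPHA receptors the difference rests on the means, since Epha1 led in 2 wildtype libraries and Epha2 in 1, and the wildtype shares of Epha7 (13.6 to 24.96%) and Epha2 (2.28 to 20.1%) overlapped. Robo1 led the ROBOs in 5 of 6 wildtype libraries. In the other 6 families the same gene led by mean in both genotypes, though Slit3 and Ntn3 led in only 4 and Efnb1 in only 3 of the 6 wildtype libraries. Ranked by CPM, without length, the leading gene was the same in 18 of the 22 family and genotype pairs.

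Wildtype replicates 1 and 5, which carry different prefixes, were the 2 highest wildtype libraries for 19 of the 68 members, and replicates 3 and 4 for 15, with fewer for every other pair. The same pairs differed least among the wildtype libraries over the whole table. Their chi-square per degree of freedom was 21.3 for replicates 1 and 5 and 13.4 for 3 and 4. How often each pair was highest over all genes was not counted. Among the 19, picked out after their values were seen, were Sema5b, Plxnc1, Efna5, Epha4, Epha7, Unc5c and the untested Epha6. The 10 posterior lobe and glial markers were, of the wildtype libraries, also highest in replicates 1 and 5, at 0.0119% and 0.0132% of counts. The other wildtype libraries had 0.00488 to 0.00573% and the APC-mutant libraries 0.0204 to 0.0304%. The APC-mutant share is mostly Cd38, at 202 ± 32.3 CPM in APC-mutant and 3.7 ± 2.93 CPM in wildtype libraries (SD, n = 5 and 6). Without Cd38 the other 9 markers took 0.00336 to 0.00511% in APC-mutant libraries, against 0.0116% and 0.0132% in wildtype replicates 1 and 5 and 0.00459 to 0.00557% in the other wildtype libraries. Of the 8 posterior lobe and glial markers tested 2 rose and 1 fell between the genotypes (37.5% called, against 59.2% of all tested genes). The part of such cells in the spread of these members was not tested.

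Other parts of the guidance machinery were divided in direction. Of 38 tested further ligands, receptors and co-receptors 13 rose (34.2%) and 15 fell (39.5%), where 30.7% of all tested genes rose and 28.5% fell, and the median log2 fold change was -0.16. The shares are a description, and nothing particular to the list was tested. Dcc, the attractive netrin receptor, stood at 4.56 ± 0.929 CPM in APC-mutant and 40.9 ± 9.38 CPM in wildtype cells (SD, n = 5 and 6, -3.16 ± 0.20 log2 units). Neo1, which encodes the DCC relative neogenin, was likewise lower, at -0.83 ± 0.15 log2 units. Flrt2, a ligand of UNC5 receptors, rose by 2.31 ± 0.19, and Cd93, an endothelial cell surface receptor, by 7.02 ± 0.37. The adhesion molecules Tenm1 and Dscaml1 had changes of -5.60 ± 0.31 and -4.98 ± 0.34.

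Of 69 tested cytoplasmic effectors of guidance receptors 33 rose (47.8%), 21 fell (30.4%) and 15 did not pass the test, and the median log2 fold change was 0.30. Over all tested genes 30.7% rose and 28.5% fell, and nothing particular to these effectors was tested. Arhgef15, an exchange factor bound by EPH receptors and known from endothelium, reached 95.7 ± 17.5 CPM in APC-mutant and 2.27 ± 0.326 CPM in wildtype cells. Fes, a kinase that acts on semaphorin signals, and Rnd1, a small GTPase that binds plexins, rose by 4.69 ± 0.24 and 4.24 ± 0.41 log2 units. The collapsin response mediators, which carry the signal of SEMA3A, moved apart: Dpysl3 rose by 2.44 ± 0.15, and Crmp1 and Dpysl5 had changes of -2.86 ± 0.24 and -3.25 ± 0.23. Dpysl2 and Dpysl4 did not pass the test. Pak3, a neuronal kinase downstream of Rac1 and Cdc42, stood at 7.19 ± 1.41 CPM in APC-mutant and 91.1 ± 17.1 CPM in wildtype cells.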

How the data were processed

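Messenger RNA of sorted mouse pituitary cells was sequenced from 5 APC-mutant and 6 wildtype libraries. Per the labels' protocols, cells were frozen, RNA was amplified with a SMARTer kit and poly(A)-enriched, and read pairs of 150 bases were sequenced. The authors deposited raw counts per gene. Per the file headers these come from featureCounts 2.0.1 on GRCm39 with GENCODE M33. There, read pairs were counted without strand and for each gene overlapped, and pairs mapping to several places were left out. Trim Galore 0.6.5, STAR 2.7.9a and DESeq2 are named in the submitters' processing notes. Symbols matched 91.2% of identifiers.

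From the counts, edgeR 4.0.16 (R 4.3.3) was run on the whole table with filterByExpr, TMM scaling and the quasi-likelihood F test, and p-values were Benjamini-Hochberg adjusted over all genes tested. The procedure was tested on simulated data. Levels are TMM-normalised CPM, or CPM per kilobase of exon where genes are compared. A positive log2 fold change means a higher level in APC-mutant cells, and the SE is its size divided by the square root of F. Floors of 3 counts and 95% intervals (exact, of count ratios) cover counting error only, since amplified fragments are not independent molecules. Within a genotype every pair of libraries differed by more than sampling noise (chi-square of 13.4 to 84.3 per degree of freedom).

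The members and lists were chosen with earlier results of these data known. Every member could be named. Values in every APC-mutant library, with each or the lowest, median and highest wildtype value, were given for the leading members of each family by level per kilobase, the called members with the extreme fold changes, and uncalled members with a mean of at least 10 CPM. Sema3e, Sema3g, Sema6d and the effectors and co-receptors singled out were chosen after their values were seen. Alternatives covered scaling, DESeq2 1.42.0, limma voom 3.58.1, filters, a replicate block, each wildtype prefix alone, and leaving out libraries.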

Additional observations from a re-analysis of the deposited data

Results flagged for a closer look

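Over 65 tested members in 2 genotypes, 130 sets of libraries were checked for a library set apart from the rest of its genotype. The check marked 7, where chance alone would mark about 1 in 20, or 6.5. Sema3g had 0.246 CPM in wildtype replicate 6, against 0.0501 CPM in the next library. Sema7a had 0.132 CPM in wildtype replicate 3 and no count in the other wildtype libraries. Both rest on a few counts. Slit3 was lowest in APC-mutant replicate 6 at 24.35 CPM, with the next library at 32.7 CPM. Epha2 was lowest in wildtype replicate 2 at 0.947 CPM, with the next at 10.14 CPM, although that replicate was one of the deeper libraries. In APC-mutant replicate 5, Ephb1 stood at 46.5 CPM (next 28.8 CPM) and Efna4 at 23.8 CPM (next 18.25 CPM). Ntn1 was highest in wildtype replicate 1 at 3.01 CPM, with the next at 2.07 CPM.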

How the results depend on the processing

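The 21 alternatives kept the counts of genes and of members called in each direction within 1.5 times the reported values. Leaving out each library in turn gave 32 to 33 members higher and 17 to 19 lower, and 5995 to 6368 genes higher and 5479 to 5882 lower. Of the 53 called members 42 kept their call under every alternative, and 6 of the 12 uncalled members stayed uncalled under every alternative. The only change of sign was that of the uncalled Slit3, -0.032 with upper-quartile scaling and -0.056 against the ROSAE libraries alone. Against the ROSAJC libraries alone 32 members were higher and 18 lower, and against the ROSAE libraries alone, with 2 wildtype libraries, 29 higher and 17 lower. Same-numbered libraries did not deviate together (correlations -0.17 to 0.04), but such a check cannot exclude that the numbers pair them. With the replicate block, which leaves out wildtype replicate 3, 32 members were higher and 14 lower, and 5662 and 4915 genes. Members without a count in some wildtype libraries, such as Sema7a, Sema3g and Robo4, have fold changes that depend on the fit. For Robo4 the log2 fold change was 14.5 against the ROSAE libraries alone, where it had no count. The genotype cannot be told apart from the prefix.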

Other observations

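The guidance genes had a higher median spread between libraries of a genotype than all genes past the same level. Over the 44 members with a mean of at least 10 CPM the median coefficient of variation was 16.7% in APC-mutant and 23.3% in wildtype libraries. Over the 11711 genes past the same level it was 12.5% in APC-mutant and 18.4% in wildtype libraries. No test of this difference was made.

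Ntn5, 23.4% of whose exonic bases overlap another gene, had 0.379 ± 0.103 CPM in APC-mutant and 0.112 ± 0.158 CPM in wildtype libraries (SD, n = 5 and 6). Epha8 had 0.119 ± 0.0975 CPM in APC-mutant and 0.199 ± 0.243 CPM in wildtype libraries.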
